A study of Mus musculus with 40 samples.

Results

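Endoglin and 9 other genes of the TGF-beta pathway were followed in RNA-seq libraries of mouse follicular (FO) B cells. The genes were found by symbol, after marks such as the one for overlapping gene models were removed, and they are 10 of the 24732 genes that each library lists. Eng was selected on its TPM in these libraries, where it is strongly raised without Ikaros, so its values in cells with and without Ikaros are given as a description with no test. The other 9 genes are Tgfb1, Tgfbr1, Tgfbr2, Acvrl1, Bmpr2, Smad3, Smad7, Ski and Skil.

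TGF-beta is a secreted protein that binds a pair of receptor kinases, and these phosphorylate SMAD proteins that move to the nucleus and control transcription. Endoglin is a co-receptor that binds ligands of the family at the cell surface and is best known from the endothelium, where it works with the type I receptor ALK1, the product of Acvrl1. In B cells TGF-beta is known to restrain proliferation and to direct class switching to IgA.

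All mice were C57BL/6 and carried the MD4 transgene, whose B cell receptor binds hen egg lysozyme (HEL), and the FO cells were sorted by FACS. Ikaros is a zinc finger DNA-binding protein encoded by Ikzf1, and it was deleted with Cd23-cre, which acts late in B cell development. Cells taken 1 day after intravenous HEL had Cd23-cre and Ikzf1(fl/fl) or, as controls, Ikzf1(fl/fl) with no Cre (5 libraries each). An effect of Cre itself and one of Ikaros loss cannot be told apart there. Cells stimulated in vitro with CpG, a ligand of Tlr9, for 1 day had Cd23-cre and Ikzf1(fl/-) or, as controls, Cd23-cre and Ikzf1(fl/+) (4 libraries each). Naive cells of the same pair of genotypes gave 2 libraries each. Both of these control groups therefore carry Cre and 1 floxed Ikzf1 allele. Anergic cells came from mice with the ML5 transgene as well, which makes soluble HEL: their 3 libraries were Ikzf1(fl/fl) and Ikzf1(fl/+) without Cre and Ikzf1(fl/+) with Cre. They were set against a further 3 naive libraries, of which 2 were Ikzf1(fl/+) without Cre and 1 was Ikzf1(fl/+) with Cre. The labels do not say whether replicates are separate animals. The p-values therefore rest on the spread among these libraries, which may be technical in part.

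Values are TPM, each gene's share of a library's transcripts, a level that is corrected for transcript length and so can be compared between genes. Log2 differences are on the log2(TPM + 1) scale with their standard error, which understates the change of genes with low TPM. A gene was called where limma's adjusted p was under 0.05. Recovered depth was 12126702 to 25424364 reads per library. Cd79a, which encodes a signalling chain of the B cell receptor, was at 5493 to 6097 TPM in Cre cells after HEL, against 7207 to 8123 TPM without Cre, and these ranges were apart. It was at 761.5 to 1247 TPM in CpG fl/- cells, against 962.3 to 1570 TPM in CpG fl/+ cells, and at 6908 to 8268 TPM in naive fl/- cells, against 8822 to 9023 TPM in naive fl/+ cells. The anergic libraries had 6778 to 8614 TPM, against 7021 to 8790 TPM in their naive controls. By Y-linked transcripts the HEL groups held 3 female and 2 male libraries each and the naive groups of the fl/- comparison 1 of each sex, while all other groups were male. Ikzf1, the deleted gene, was at 60.3 to 79.3 TPM in Cre libraries after HEL, against 195 to 260.8 TPM without Cre. It was at 31.7 to 39.5 TPM in fl/- libraries after CpG, against 134.8 to 171.9 TPM in fl/+ libraries. Naive fl/- libraries had 65.3 and 57.3 TPM of it, against 135.5 and 120.2 TPM in naive fl/+ libraries. The TPM is summed over the gene, so transcripts with and without the deleted part are not separated.

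The bases just before the transcription start are shown for Eng, the gene that stands out, and for Smad3 and Ski, which differed in opposite directions after HEL. They are RefSeq promoters of 250 bases on the strand of the gene, in build GRCm38.p6, whereas the authors' build was mm9. Of the 10 genes, 7 had a RefSeq promoter here, and Acvrl1, Smad7 and Skil are missing. A filter dropped these genes' promoters on a single chromosome, which need not account for every missing gene. The shares over all promoters keep that chromosome. Capitals mark TGGGAA, the core of Ikaros motifs, or CAGACA, a core of SMAD motifs, searched on both strands.
Eng, chr2:32646345-32646594, + strand: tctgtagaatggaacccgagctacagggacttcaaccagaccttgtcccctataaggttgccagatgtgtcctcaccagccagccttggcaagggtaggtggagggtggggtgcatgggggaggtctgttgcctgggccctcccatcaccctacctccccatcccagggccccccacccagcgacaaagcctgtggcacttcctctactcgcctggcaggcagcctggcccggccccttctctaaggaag
Smad3, chr9:63757995-63758244, - strand: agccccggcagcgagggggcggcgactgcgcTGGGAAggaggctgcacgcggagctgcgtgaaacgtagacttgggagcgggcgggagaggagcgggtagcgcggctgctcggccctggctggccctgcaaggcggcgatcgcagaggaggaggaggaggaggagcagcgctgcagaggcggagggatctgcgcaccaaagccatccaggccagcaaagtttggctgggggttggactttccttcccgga
Ski, chr4:155222536-155222785, - strand: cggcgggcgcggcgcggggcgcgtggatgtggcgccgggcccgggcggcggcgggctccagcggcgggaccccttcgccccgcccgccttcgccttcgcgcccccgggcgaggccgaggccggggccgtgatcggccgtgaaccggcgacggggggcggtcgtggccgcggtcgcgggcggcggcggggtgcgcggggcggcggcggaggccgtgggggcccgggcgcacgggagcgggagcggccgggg

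The Eng window holds neither motif, and this says only that these letters are not in the window. The Smad3 window holds TGGGAA once, 219 bases before the start. TGGGAA is found in 21.6% and CAGACA in 17.1% of the 32851 RefSeq promoters of this length, so a match is common. The Eng window is 62.4% G and C but holds only 4 CG pairs, against 22 for Smad3 and 53 for Ski. The median over all promoters is 6 CG pairs, and 37.8% of promoters hold fewer than Eng.

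Eng was at a high level in every library with loss of Ikaros and low in every control. After HEL it was at 26.5, 30.9, 22.6, 25.9 and 26.6 TPM in Cre Ikzf1(fl/fl) cells, against 0.825, 0.777, 0.381, 0.524 and 0.347 TPM in cells without Cre. The means of 26.5 ± 2.96 and 0.571 ± 0.221 TPM (SD, n = 5 each) are 46.5 times apart. The control level rests on 12 to 32 recovered reads per library, so the ratio is less precise than the level with Cre. After CpG Eng was at 34.3, 35.4, 36.8 and 35.6 TPM in fl/- cells, against 3.06, 2.35, 2.85 and 2.67 TPM in fl/+ cells. Naive fl/- cells had 29.8 and 24.2 TPM of Eng, against 5.42 and 8.01 TPM in naive fl/+ cells. The groups did not overlap in any of the 3 comparisons.

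The log2 differences for Eng were 4.14 ± 0.11 after HEL, 3.29 ± 0.09 after CpG and 1.87 ± 0.24 in naive cells. As ratios, the group means without Ikaros lie closer together than those of the controls. Ordered by mean, CpG fl/- cells came first at 35.5 TPM and stood apart from naive fl/- cells at 27.0 TPM. The naive fl/- range overlapped that of HEL Cre cells at 26.5 TPM. These groups are of different library series, so series and stimulus cannot be told apart in their order. The control groups ran from 6.72 TPM in naive fl/+ cells, 6.61 TPM in the other naive group and 2.73 TPM after CpG to 0.571 TPM after HEL and 0.522 TPM in anergic cells. Neighbours in that order overlapped, except that the CpG control libraries, which are of another library series, lay above all HEL control libraries. The CpG effect minus the HEL effect was -0.84 ± 0.14 on the log2 scale, a description, and stimulus, culture, library series and control genotype all differ between them.

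**Figure D1:**
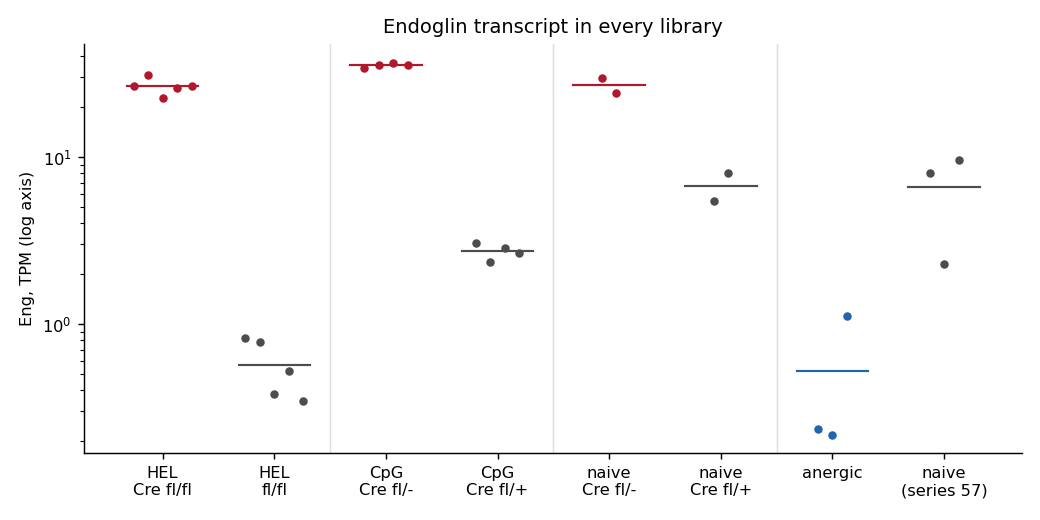
Eng level in TPM (log axis) in each of 28 libraries, with the group mean as a bar; each pair of groups has the cells without Ikaros (red) or the anergic cells (blue) on the left and their controls (grey) on the right, and series 57 is the library series of the naive cells set against anergic cells. The libraries without Ikaros lie between 22.6 and 36.8 TPM and every other library is at 9.53 TPM or less.

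Anergic cells, whose Ikzf1 was not deleted on both alleles, had the lowest mean Eng level, in a range that overlapped that of HEL controls. It was at 0.235, 0.216 and 1.11 TPM in anergic libraries (6, 6 and 35 reads), against 8.00, 2.29 and 9.53 TPM in their naive controls (255, 73 and 276 reads). The groups did not overlap. Eng was chosen for its rise without Ikaros, but with earlier results of these data known. Eng passed the minimum of 1 TPM only through the naive libraries, since 1 of 3 anergic libraries reached it, so a call after that filter is no support for a difference. The log2 difference was -2.21 ± 0.43, with an adjusted p of 0.0677 in the limma fit with no filter and 0.0203 with it. After the filter 9 genes of the set were tested in anergic against naive cells and Eng alone had an adjusted p under 0.05, where 7.37% of all tested genes were called, 2.89% lower. The adjusted p with the filter was above 0.05 without anergic replicate 1 (adjusted p = 0.102) and without naive replicate 1 or 3 (adjusted p = 0.0846 and 0.0895).

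In both of these groups the library that carries Cre, and so has 1 Ikzf1 allele open to deletion, had the highest Eng level. In anergic cells this library had 1.11 TPM of Eng beside 178.6 TPM of Ikzf1, and the other libraries had 303.9 and 319.1 TPM of Ikzf1. In naive cells it had 9.53 TPM of Eng beside 146.1 TPM of Ikzf1, and the libraries without Cre had 142.5 TPM of Ikzf1 with 8.00 TPM of Eng and 218.7 TPM of Ikzf1 with 2.29 TPM of Eng. Each group holds 1 Cre library, and an effect of Cre was not tested. HEL-exposed Ikzf1(fl/fl) cells, which share the naive controls with the anergic cells, had an Eng log2 difference of -2.12 ± 0.32 against them. That value is a description, since the same HEL libraries were used to pick Eng.

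Macrophages and endothelial cells also express endoglin, so their markers were read beside it. Of 14 endothelial genes, Tek, Cldn5, Emcn and Robo4 were at or near 0 in all libraries, with no value above 0.158 TPM. Kdr was higher with Eng after HEL, at 0.0542 to 0.196 TPM in Cre cells, against 0 to 0.034 TPM. Egfl7 was higher after CpG, at 7.76 to 9.96 TPM in fl/- cells, against 5.79 to 6.52 TPM in fl/+ cells. In naive fl/- cells Plvap was higher, at 0.240 to 0.397 TPM, against 0.0590 to 0.160 TPM in fl/+ cells. Esam was lower there, at 0 to 0.104 TPM, against 0.116 to 0.128 TPM. Each of these genes overlapped in the other comparisons with loss of Ikaros. Cdh5 overlapped in each of them, at 1.24 to 2.14 TPM in Cre cells after HEL, against 0.622 to 1.503 TPM. After CpG Cdh5 was at 0.459 to 0.927 TPM in fl/- cells, against 0.59 to 1.389 TPM in fl/+ cells. The endothelial sum was 109.9 to 151.8 TPM in Cre cells after HEL, against 133.9 to 189.4 TPM in controls, nearly all of it Pecam1, which B cells express. The sum of 15 macrophage and monocyte genes was 197.3 to 301.3 TPM in Cre cells after HEL, against 30.6 to 135.6 TPM in controls, and none of the 15 was at 0 in all libraries of either HEL group. Most of it was Ly6c2, at 156.3 to 255.2 TPM with Cre, against 14.2 to 122.2 TPM. Cd68 was at 21.8 to 29.6 TPM, against 5.64 to 10.3 TPM, and Csf1r at 2.01 to 4.19 TPM, against 0.215 to 0.636 TPM. Ccr2 was at 1.85 to 5.51 TPM with Cre, against 0 to 0.177 TPM, and Fcgr1 at 0.212 to 0.516 TPM, against 0.0328 to 0.142 TPM. The macrophage genes Spic and Adgre1 were lower with Cre, as was Cd14 at 0 to 0.0558 TPM, against 0.0568 to 0.207 TPM. Spic was at 0.528 to 1.09 TPM, against 1.31 to 3.10 TPM, and Adgre1 at 0.127 to 0.275 TPM, against 0.287 to 0.511 TPM. Mertk was at 0 to 0.166 TPM with Cre, against 0 to 0.0717 TPM. After CpG the macrophage sum was 5.80 to 128.7 TPM in fl/- cells, against 4.59 to 364.4 TPM in fl/+ cells, again mostly Ly6c2. There Cd68 was at 3.16 to 4.53 TPM in fl/- cells, against 0.367 to 2.63 TPM, and Ccr2 at 0.198 to 0.391 TPM, against 0 TPM. In naive cells the macrophage sum was 206.6 to 309.9 TPM in fl/- cells, against 118.6 to 175.5 TPM in fl/+ cells, and the endothelial sum 118.7 to 127.7 TPM, against 139.0 to 150.3 TPM. HEL controls had less Csf1r than the naive controls of anergic cells, which were at 2.07 to 4.97 TPM. C1qa was lower there too, at 0.766 to 1.49 TPM, against 5.02 to 12.3 TPM, and Cd68 higher, against 4.23 to 5.11 TPM. Anergic cells overlapped these naive cells in Csf1r (0.466 to 5.72 TPM) and C1qa (0.5955 to 15.3 TPM). Their Spic was higher, at 3.055 to 6.11 TPM, against 0.390 to 1.77 TPM.

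Dendritic cell genes summed to 208 to 293 TPM in Cre cells after HEL, against 112 to 379 TPM, nearly all of it Bst2. Siglech, Cd209a and Flt3 were higher with Eng there. Siglech was at 1.49 to 2.90 TPM in Cre cells, against 0 to 0.0386 TPM. Cd209a was at 1.91 to 3.36 TPM, against 0.172 to 0.348 TPM, and Flt3 at 9.46 to 17.6 TPM, against 2.68 to 5.83 TPM. The ranges of the remaining dendritic genes, Zbtb46, Xcr1, Clec9a and Itgax, overlapped between the HEL groups, as did those of Bst2. Flt3 was also higher in fl/- cells after CpG, at 28.9 to 37.5 TPM, against 12 to 27.2 TPM, and in naive cells, at 23.95 to 39.5 TPM, against 7.14 to 13.1 TPM. After HEL, NK cell genes summed to 4.77 to 8.95 TPM, against 9.81 to 12.6 TPM. Nearly all of it was Prf1, at 4.30 to 8.41 TPM, against 9.27 to 12.4 TPM, while Ncr1 and Gzma were at 0 TPM in both groups. The naive controls of anergic cells had 13.4 to 18.2 TPM of Prf1 with every other NK gene of the list at 0 TPM. Platelet, T cell, erythroid, neutrophil and stromal genes summed to at most 5.39 TPM each in both HEL groups. Neutrophil genes summed to 21.6 to 76.2 TPM in naive fl/- cells, against 35.4 to 87.1 TPM in naive fl/+ cells, and to 0 to 18.4 TPM in CpG fl/- cells, against 0 to 122.3 TPM in CpG fl/+ cells. T cell genes summed to 7.79 to 9.33 TPM in naive fl/- cells, against 9.10 to 25.8 TPM in naive fl/+ cells. The part of these transcripts in the Eng level was not tested. In bulk libraries, fewer cells of a type and less RNA per cell cannot be told apart.

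The authors' files mark Eng as overlapping another gene model, and in the RefSeq table its end overlaps Fpgs, which encodes an enzyme of folate metabolism. The strandedness of the libraries is not given in the sources used here, so reads in the overlap cannot be assigned with certainty. Fpgs was at 9.45 to 10.6 TPM in Cre cells after HEL, against 11.7 to 15.1 TPM in controls, a fall by 0.42 on the log2 scale (limma, adjusted p = 0.000971). CpG fl/- cells had 52.3 to 60.03 TPM of Fpgs, against 43.4 to 59.1 TPM in CpG fl/+ cells, which was not called. Its naive log2 difference was -0.04 ± 0.19. Fpgs was thus lower in 1 of these 3 comparisons, where Eng was higher, and not called in the others. In HEL-exposed against naive cells Fpgs was lower, as Eng was. It was at 11.7 to 15.1 TPM there, against 22.9 to 26.2 TPM (-0.82 ± 0.09, limma, adjusted p = 9.88e-05). Against the same naive cells, anergic cells had less Eng while Fpgs was not called (-0.10 ± 0.16). The part of shared reads in either level was not tested. Of the genes before Eng, the sialyltransferase gene St6galnac6 rose by 0.35 ± 0.10 after HEL (limma, adjusted p = 0.0119) and was not called after CpG or in naive cells. St6galnac4 and, on the other side, the kinase gene Cdk9 were not called in any of the 3 comparisons, and Ak1 and Mir8093 were under the TPM minimum.

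**Figure D2:**
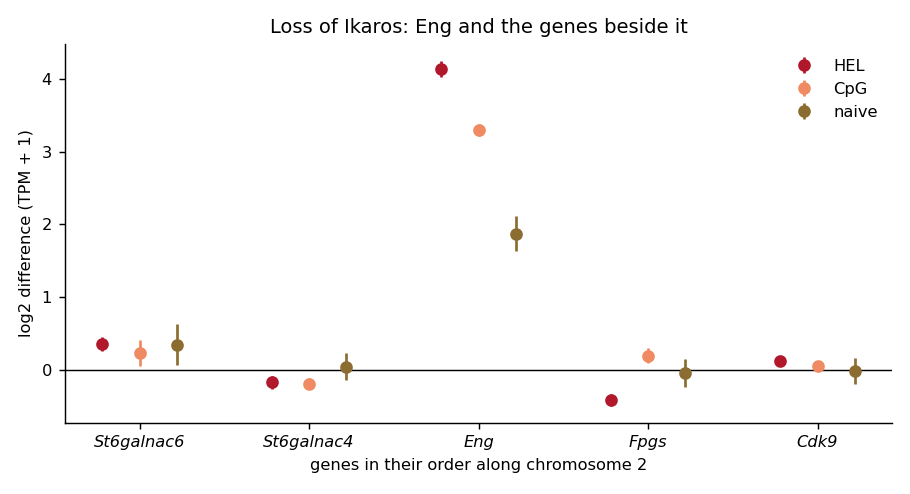
Log2 difference with its standard error, cells without Ikaros over controls, for Eng and the measured genes beside it in their order on the chromosome, after HEL, after CpG and in naive cells. Eng lies between 1.87 and 4.14 and the 4 other genes lie between -0.42 and 0.35.

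Over the 28 libraries, the 5 genes whose log2 level was most like that of Eng, of 10526 compared, were the protein kinase C gene Prkch (Pearson r = 0.945), Tmem205 (0.942, with an overlap mark), the paired membrane protein genes Tmem176b (0.937) and Tmem176a (0.928), and 2210013O21Rik (0.925). The least like were Ikzf1 itself (r = -0.946), Syt11 (-0.880) and Arhgap24 (-0.835). These libraries share groups, stimuli and library series, so the correlations describe the pattern and carry no test. Tmem176b, the most abundant of the 5 in CpG fl/- cells, was at 288.3 ± 14.0 TPM in fl/- cells and 7.41 ± 2.18 TPM in fl/+ cells (SD, n = 4 each). Taking deviations from the group means, the most like were Mpi (r = 0.802), 2210013O21Rik (0.782), Cacna1e (0.771), Eif4e3 (0.754) and Clec4g (0.753). None of the 8 other tested members of the set had an r with Eng above 0.105, the value of Acvrl1, and the lowest was that of Tgfbr1 at -0.548.

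The question for the rest of the pathway was whether its ligand, receptors and SMADs differ with loss of Ikaros. After HEL, 5 of the 8 genes tested, Eng left out, were called: 2 higher and 3 lower. Over all tested genes 36.9% were called, 12.9% higher and 24.1% lower. The median log2 difference of the 8 was -0.15, against -0.08 for all genes. Bmpr2, the type II receptor for BMPs, was at 0.144 to 0.693 TPM over all libraries and under the TPM minimum in every comparison.

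**Figure D3:**
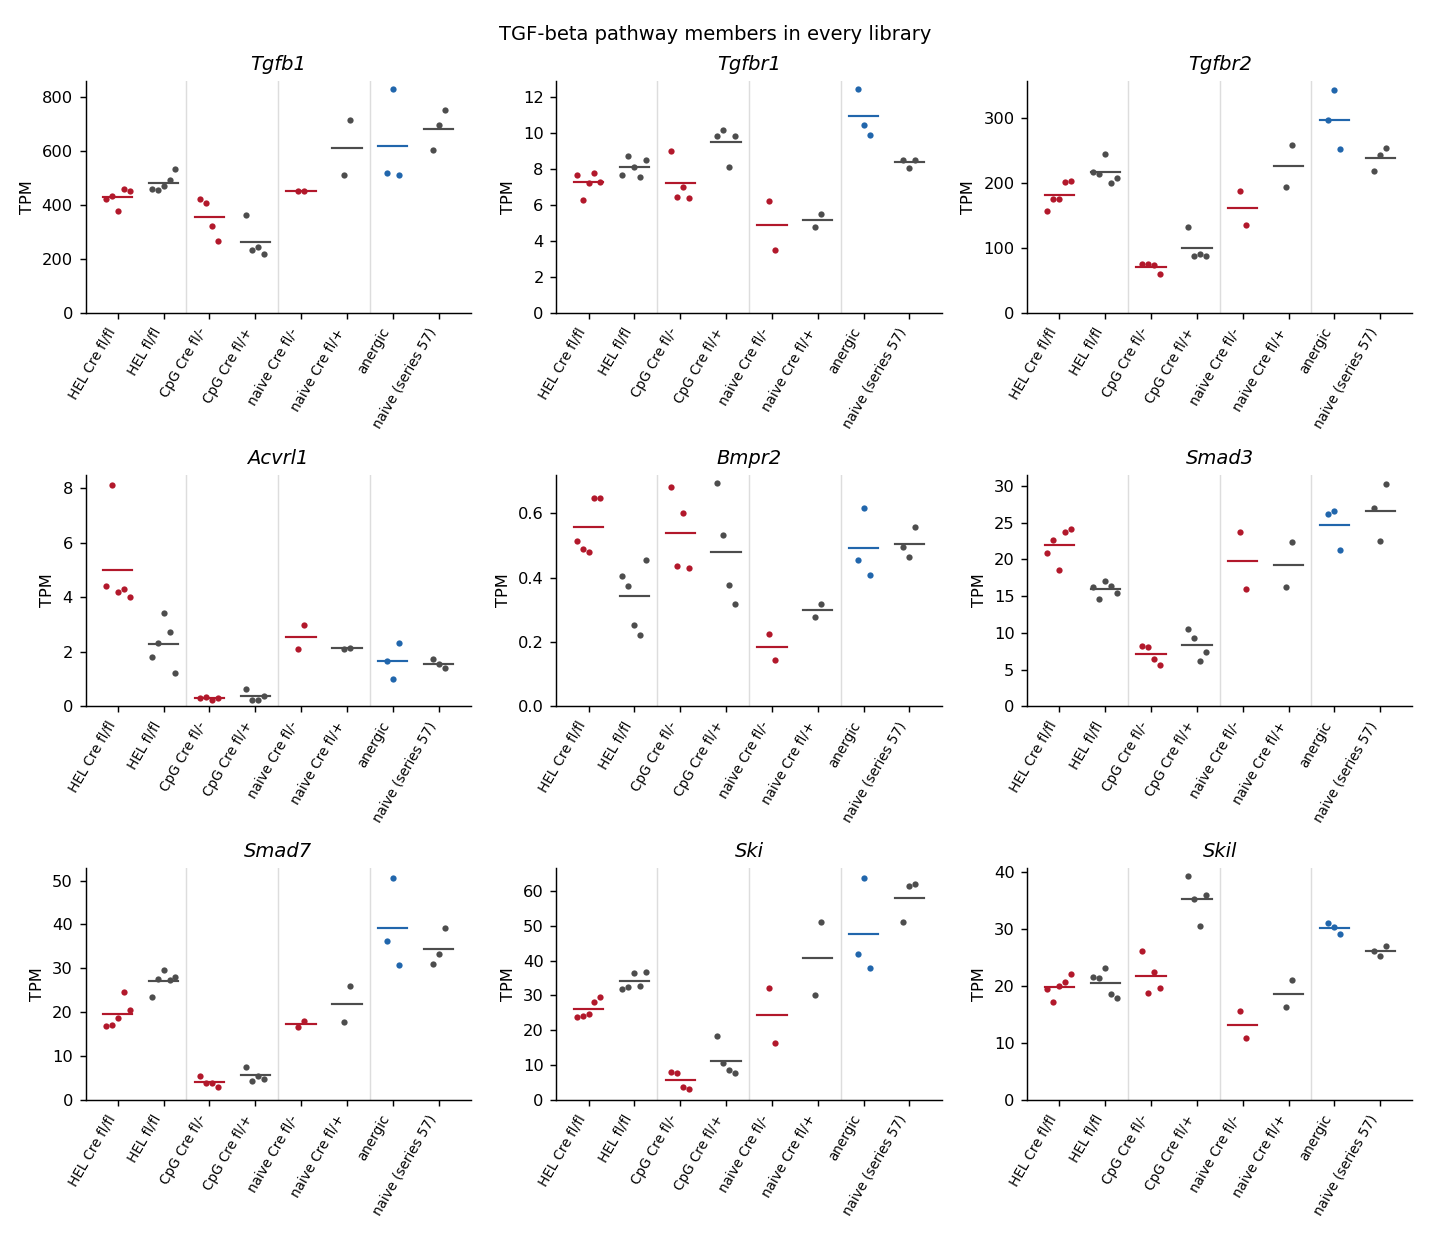
Level in TPM of 9 pathway genes in each of 28 libraries, with the group mean as a bar; cells without Ikaros (red) and anergic cells (blue) stand left of their controls (grey). Acvrl1 and Smad3 lie higher in HEL Cre cells than in HEL controls, and Skil lies lower in CpG fl/- cells than in CpG fl/+ cells.

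Tgfb1, the ligand, was the most abundant of the 10 transcripts in every library. It was at 421, 433, 380, 460 and 452 TPM in Cre cells after HEL, against 460, 455, 469, 491 and 534 TPM without Cre. The ranges overlapped and the log2 difference was -0.17 ± 0.06 (limma, adjusted p = 0.0546), which a term for sex brought to an adjusted p of 0.0211. After CpG it was at 424, 409, 323 and 266 TPM in fl/- cells, against 362, 234, 245 and 217 TPM in fl/+ cells, which was not called either (0.43 ± 0.19, adjusted p = 0.166). Naive fl/- cells had 450.3 and 450.8 TPM of it, against 509.98 and 715.02 TPM in naive fl/+ cells.

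Among the receptors, Acvrl1, the type I receptor that pairs with endoglin in endothelium, rose after HEL. It was at 4.42, 8.09, 4.19, 4.28 and 4.00 TPM in Cre cells, against 1.80, 2.32, 3.43, 2.74 and 1.23 TPM without Cre. The groups did not overlap, and the highest value stands far from the other 4 of its group. The log2 difference was 0.86 ± 0.20 (limma, adjusted p = 0.00395), and 0.70 without that library. After CpG Acvrl1 was at 0.221 to 0.650 TPM in all 8 libraries, under the minimum for a test. Naive fl/- cells had 2.12 and 2.99 TPM, against 2.10 and 2.16 TPM in naive fl/+ cells, and it was not called.

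Tgfbr2, the type II receptor that binds TGF-beta, was far more abundant. It was at 156, 174.5, 174.5, 200.7 and 203 TPM in Cre cells after HEL, against 216, 213, 244, 200.2 and 207 TPM without Cre. The ranges overlapped and the level fell by 0.25 on the log2 scale (limma, adjusted p = 0.0223). The call was lost with median-ratio scaling (adjusted p = 0.0607) and when any of 4 libraries was left out: control replicate 3 (0.0552) or Cre replicates 1, 2 and 3 (0.0567, 0.0518 and 0.0504). After CpG it was at 75.9, 75.7, 73.0 and 59.2 TPM in fl/- cells, against 132.7, 87.4, 91.3 and 87.1 TPM in fl/+ cells. Here the groups did not overlap, and the log2 difference of -0.47 ± 0.15 was not called (limma, adjusted p = 0.0639). Tgfbr1, the type I receptor for TGF-beta, was at 6.27 to 7.79 TPM in Cre cells after HEL, against 7.53 to 8.70 TPM, and was not called.

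Smad3, which carries the TGF-beta signal to DNA, rose after HEL. It was at 20.8, 22.7, 18.5, 23.7 and 24.1 TPM in Cre cells, against 16.3, 14.6, 17.1, 16.3 and 15.4 TPM without Cre. Every Cre library lay above every control, with a log2 difference of 0.44 ± 0.08 (limma, adjusted p = 0.000723). After CpG the ranges overlapped, at 5.70 to 8.16 TPM in fl/- cells, against 6.16 to 10.6 TPM in fl/+ cells, and Smad3 was not called (-0.20 ± 0.17).

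The inhibitors Smad7 and Ski fell after HEL. Smad7, the inhibitory SMAD that blocks the receptors, was at 16.9, 17.1, 18.7, 24.7 and 20.6 TPM in Cre cells, against 23.4, 27.5, 29.6, 27.3 and 28.0 TPM without Cre. The ranges overlapped through Cre replicate 4, and the level fell by 0.46 on the log2 scale (limma, adjusted p = 0.00265). Ski, a co-repressor that binds SMADs, was at 23.8, 24.2, 24.5, 28.0 and 29.6 TPM in Cre cells, against 31.9, 32.5, 36.5, 32.6 and 36.6 TPM without Cre. The groups did not overlap, and it fell by 0.38 (limma, adjusted p = 0.00147). Skil, the related co-repressor, overlapped at 17.2 to 21.99 TPM in Cre cells, against 17.8 to 23.2 TPM without Cre, and was not called (-0.04 ± 0.08).

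After CpG only Skil was called among the 7 genes tested, where 14.9% of all tested genes were called, 9.14% higher and 5.8% lower. It was at 26.0, 18.7, 22.5 and 19.6 TPM in fl/- cells, against 39.2, 35.2, 30.4 and 35.9 TPM in fl/+ cells. The groups did not overlap, and it fell by 0.68 on the log2 scale (limma, adjusted p = 0.00608). The median of the 7 was -0.40, against 0.02 for all genes. Ski was at 7.97, 7.67, 3.77 and 3.16 TPM in fl/- cells, against 18.3, 10.6, 8.59 and 7.77 TPM in fl/+ cells. Its log2 difference of -0.90 ± 0.32 was not called (limma, adjusted p = 0.0940). The library numbers of the titles form a first and a second block with 2 libraries per genotype each, and Ski was higher in both genotypes in the first block. With a term for this block 4 genes were called: Ski (adjusted p = 0.00488), Skil and Tgfbr2 (0.0308) lower, and Tgfb1 (0.0499) higher.

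In naive cells 0 of the 8 genes tested were called by limma, where 0.0199% of all tested genes were called. Before adjustment 2 of the 8 had a p under 0.05, and voom on recovered reads also called 0. With 2 libraries per group the largest differences were those of Ski at -0.74 ± 0.34 and Tgfbr2 at -0.49 ± 0.21. The median of the 8 was -0.36, against -0.12 for all genes.

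**Figure D4:**
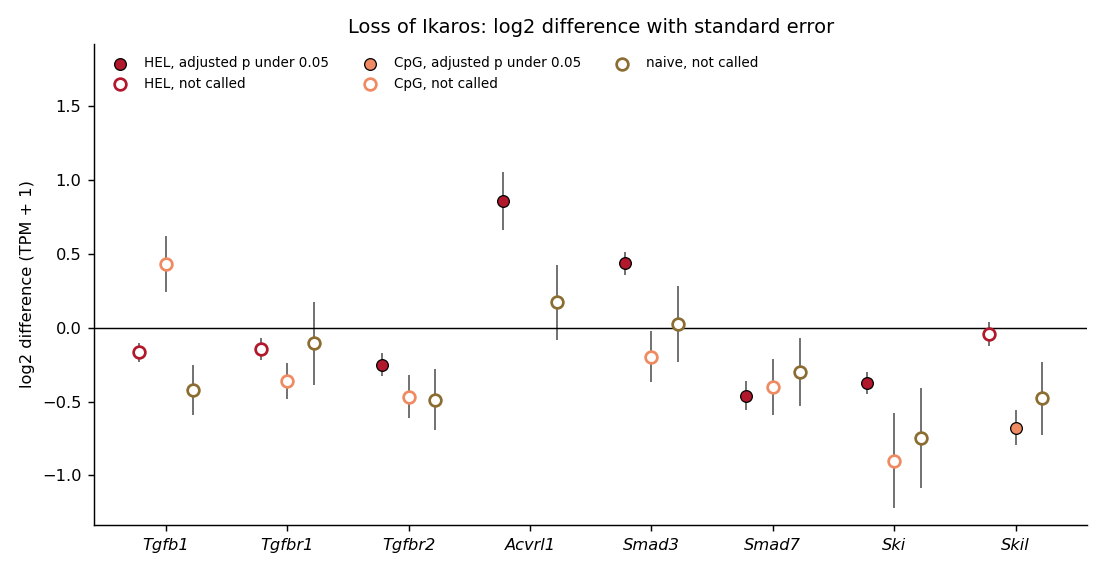
Log2 difference with its standard error, cells without Ikaros over controls, for the 8 genes other than Eng that passed the TPM minimum in at least 1 comparison; filled points have an adjusted p under 0.05. Acvrl1 and Smad3 were called higher after HEL, Tgfbr2, Smad7 and Ski lower after HEL, and Skil lower after CpG.

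The effects of Ikaros loss in both stimuli were also compared directly, as the CpG effect minus the HEL effect. Of 8 genes tested 4 differed, where 22.4% of all tested genes differed, 15.2% with a higher and 7.19% with a lower effect after CpG. Acvrl1 (-0.92 ± 0.26, adjusted p = 0.0181), Smad3 (-0.63 ± 0.18, adjusted p = 0.0172) and Skil (-0.64 ± 0.15, adjusted p = 0.00449) had a lower effect after CpG. Tgfb1 had a higher one (0.60 ± 0.20, adjusted p = 0.0351, limma in each case). A lower effect is a less positive or more negative log2 difference, not a weaker one. Skil was at -0.04 after HEL and -0.68 after CpG, and Smad3 at 0.44 and -0.20. For Acvrl1 the CpG level was near the lower limit in both genotypes, with 6 to 16 reads per library, and voom on recovered reads gave an adjusted p of 0.213. The call of Tgfb1 was lost under several alternatives, among them no filter (0.0607), median-ratio scaling (0.0539) and leaving out any of 10 single libraries (0.0503 to 0.0798). The difference for Ski, at -0.52 ± 0.31, was not called.

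A second question was how the pathway differs in cells that have met antigen and have no deletion of both Ikzf1 alleles. Replicate 3 of the anergic and of the naive cells carries Cre and Ikzf1(fl/+), so 1 allele is open to deletion there. The anergic and HEL-exposed cells share the naive controls, and HEL-exposed cells are Ikzf1(fl/fl) while those controls are Ikzf1(fl/+), so each comparison is given on its own. In HEL-exposed against naive cells 5 of 8 genes, Eng left out, were lower and 0 higher, where 48% of all tested genes were called, 9.92% higher and 38.1% lower. All genes had a median log2 difference of -0.16, and the 8 had -0.34. Ski fell most in this set, with 31.9, 32.5, 36.5, 32.6 and 36.6 TPM in HEL-exposed cells, against 50.9, 61.3 and 62.0 TPM in naive cells (-0.75 ± 0.08, limma, adjusted p = 8.62e-05). Relative to the median of all genes its difference was -0.59.

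Smad3 was at 14.6 to 17.1 TPM in HEL-exposed cells, against 22.5 to 30.3 TPM in naive cells (-0.70 ± 0.09), and Tgfb1 at 455 to 534 TPM, against 603 to 751 TPM (-0.50 ± 0.08). Smad7 (-0.33 ± 0.09) and Skil (-0.34 ± 0.09) were also lower, and both calls were lost with median-ratio scaling (limma, adjusted p = 0.164 and 0.125). Smad7 was not called without naive replicate 3 (adjusted p = 0.0725) or with a term for sex (0.0664), which was added since the naive and anergic libraries here are all male. Tgfbr1 and Tgfbr2 were not called, and with that scaling their differences turned to 0.12 and 0.05. In anergic against naive cells none of the other 8 genes was called. Tgfbr1 was at 9.89 to 12.4 TPM in anergic cells, against 8.07 to 8.51 TPM, and Skil at 29.1 to 31.1 TPM, against 25.2 to 27.0 TPM. Both pairs of ranges were apart, and neither was called (limma, adjusted p = 0.127 and 0.224).

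**Figure D5:**
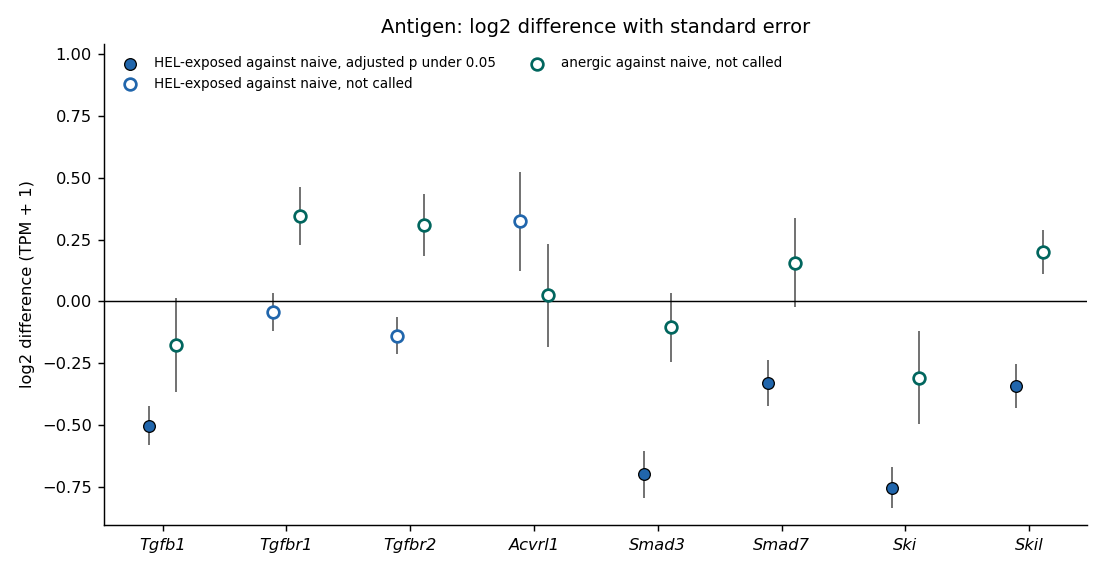
Log2 difference with its standard error for 8 pathway genes in HEL-exposed cells over naive cells (blue) and in anergic cells over the same naive cells (green); filled points have an adjusted p under 0.05. In HEL-exposed cells 5 genes were called lower, and in anergic cells none of these 8 was called.

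Anergic and HEL-exposed cells were also set against each other. In anergic against HEL-exposed cells 6 of 8 genes were called higher and 0 lower, where 42.2% of all tested genes were called, 36.8% higher and 5.39% lower. All genes were shifted by a median of 0.23 on the log2 scale. With median-ratio scaling 2 of the 8 were called, Smad3 and Skil, while Tgfbr1, Tgfbr2, Smad7 and Ski were lost. Smad3 was at 26.1, 26.6 and 21.2 TPM in anergic cells, against 14.6 to 17.1 TPM in HEL-exposed cells (0.59 ± 0.10). Skil was at 31.1, 30.3 and 29.1 TPM, against 17.8 to 23.2 TPM (0.54 ± 0.10), and neither gene's ranges overlapped. Leaving out anergic replicate 1 ended the calls of Tgfbr1 (adjusted p = 0.0557) and Ski (0.0519), and leaving out anergic replicate 2 those of Smad7 (0.0572) and Ski (0.0839). With a term for sex Smad7 (adjusted p = 0.0846) and Ski (0.118) were not called. Eng was under the TPM minimum here, at 0.216 to 1.11 TPM, against 0.347 to 0.825 TPM.

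A wider list of 91 pathway genes was read in the same fits: ligands and their activators, receptors, SMADs with their regulators, and targets. Of 45 tested after HEL, 15 fell and 5 rose with loss of Ikaros, with a median of -0.09, against -0.08 for all genes. Of all tested genes 24.1% fell and 12.9% rose. Tgfb3, a second ligand, was at 0.495 to 0.632 TPM in Cre cells, against 1.98 to 4.88 TPM without Cre (-1.46 ± 0.15). It passed the minimum only through the controls, and its adjusted p with no filter was 8.76e-05 (limma). Of the 13 targets tested 6 fell and 2 rose. Gadd45b, a stress response gene, was at 12.9 to 18.2 TPM in Cre cells, against 44.4 to 55.5 TPM (-1.70 ± 0.09). Id3, an inhibitor of E proteins, was at 137 to 175.6 TPM, against 266 to 338 TPM (-0.996 ± 0.09). The transcription factor genes Bhlhe40 (-1.08 ± 0.12), which the authors' files mark as overlapping, and Klf11 (-1.11 ± 0.13) also fell, while Tsc22d1 rose (0.80 ± 0.08). All 3 further genes tested in the receptor list were lower: Acvr1b, Rgmb and Fkbp1a, the last of which encodes a receptor-binding protein and no receptor.

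After CpG 50 of the 91 were tested, and 3 rose and 3 fell, where 9.14% of all tested genes rose and 5.8% fell, so the count is near the share over all genes. The receptors moved in both directions. Acvr1, a type I receptor for BMPs, was at 2.38 to 3.12 TPM in fl/- cells, against 0.592 to 1.17 TPM in fl/+ cells (1.06 ± 0.13). Its pass of the minimum depended on the fl/- libraries, and its adjusted p was 0.00175 with no filter and 0.00118 with it (limma). Acvr2b, a type II activin receptor, was at 1.296 to 2.70 TPM, against 0.0904 to 0.580 TPM (1.12 ± 0.19). It passed the minimum only through the fl/- libraries, and its adjusted p with no filter was 0.00805 (limma). Acvr1b, a type I activin receptor with an overlap mark, fell by 0.47. Nrros, which holds latent TGF-beta at the cell surface, rose by 0.52. The acetyltransferase gene Crebbp (-0.76 ± 0.20) and Runx3 (-0.34 ± 0.08), a partner of SMADs, fell. The calls of Acvr1b, Crebbp and Runx3 were each lost when any of several single libraries was left out. The CpG effect exceeded the HEL effect for Gadd45b (2.09 ± 0.17), Tgfb3 (1.21 ± 0.19), Klf11 (1.09 ± 0.21), Nrros (0.43 ± 0.10) and Fkbp1a (0.47 ± 0.08), which encodes a protein that binds type I receptors. It was below it for Runx3 (-0.44 ± 0.10). In all 13 genes of 51 had a higher and 2 a lower effect after CpG, and 8 and 3 with median-ratio scaling. Of all tested genes 15.2% had a higher and 7.19% a lower effect. The call of Tgfb3 was lost with voom on recovered reads (adjusted p = 0.376).

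In naive cells 0 of 47 list genes were called by limma and by voom on recovered reads, and 14 and 13 had an unadjusted p under 0.05. In anergic against naive cells 7 of 47 rose and 2 fell, and 7 and 4 with median-ratio scaling. Of all tested genes 4.48% rose and 2.89% fell. Bhlhe40 was at 28.3 to 42.4 TPM in anergic cells, against 4.48 to 10.1 TPM (2.19 ± 0.27). Klf10, a target that TGF-beta induces early, was at 7.68 to 11.2 TPM, against 2.15 to 3.02 TPM (1.54 ± 0.17), and Id3 at 289 to 432 TPM, against 112 to 158.5 TPM (1.37 ± 0.18). Tgif1, a co-repressor of SMADs, rose by 1.26 ± 0.17 and Itgav, an integrin that activates latent TGF-beta, by 0.77 ± 0.11. Id2, a relative of Id3, was at 2.84 to 5.99 TPM, against 16.8 to 21.2 TPM (-1.84 ± 0.22).

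In HEL-exposed against the same naive cells 24 of 47 fell and 6 rose, and 14 and 7 with median-ratio scaling. Of all tested genes 38.1% fell and 9.92% rose. Id3 rose (1.16 ± 0.12) and Id2 fell (-1.03 ± 0.13) there too. Klf11 (-0.91 ± 0.10), the secreted protein gene Tgfbi (-1.27 ± 0.15), the ubiquitin ligase gene Nedd4l (-0.78 ± 0.09) and Tgif2 (-0.74 ± 0.11), another overlapping gene, fell. Tgfbi passed the minimum only through the naive libraries, and its adjusted p with no filter was 0.000483 (limma). In anergic against HEL-exposed cells 30 of 46 were higher and 1 lower, beside the shift of 0.23 in all genes, and 10 and 2 with median-ratio scaling. Of all tested genes 36.8% were higher and 5.39% lower. Those with the smallest adjusted p were Bhlhe40 (1.41 ± 0.16), Klf10 (1.12 ± 0.13), Itgav (0.81 ± 0.11), the ligand gene Gdf11 (1.11 ± 0.15), Smad5 (0.70 ± 0.11) and Crebbp (0.80 ± 0.15).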

How the data were processed

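RNA-seq was analysed in 28 libraries of 8 groups. The ATAC-seq samples (8) and those of ChIP-seq (4) are not used here. The authors deposited TPM per gene and library, each library summing to 1000000. The submitters' processing notes name the build mm9 and, as tools, featureCounts 1.5.0, TopHat 1.4.1 and Bowtie, beside deepTools 3.0.1 and SAMtools 1.4. Strandedness and gene annotation are not given in the sources used here.

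Genes with a TPM of at least 1 in as many libraries as the smaller group (4 for the difference between stimuli) were tested with limma 3.58.1 in R 4.3.3. The fits used log2(TPM + 1) with a trend, two-sided tests and Benjamini-Hochberg adjustment over all genes tested. Each fit used only libraries of 1 library series (the first digits of the library number), except for the difference between stimuli. The order of groups by Eng level and the correlations with Eng span the library series. Whole reads were recovered from the steps between a gene's low TPM values, within a tolerance of 0.01, for 18843 of 18843 genes above 0, and served for depth and for voom. TPM alternatives were a pseudocount of 0.1, no filter, median-ratio scaling, terms for sex or library block, and leaving out each library. Chi-square over its degrees of freedom was 6.63 to 54.6 in 40 pairs of replicates, so no pair was as close as sampling noise. The scripts were tested on simulated data.

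The members, gene lists and tests were chosen with earlier results of these data known. Named were all members, up to 6 called list genes per comparison with the smallest adjusted p, and the receptor-list genes tested after HEL. The genes most and least like Eng and 3 genes on each side of it were also named. Marker lists of 9 other cell types were read as summed TPM, and B cell identity by Cd79a. A summed B cell list is not reported here. Counting limits cover counting error only, since the labels name no molecular identifiers. The labels number libraries, not replicates, so replicate numbers here only name libraries.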

Additional observations from a re-analysis of the deposited data

Results flagged for a closer look

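In groups of 4 or 5 libraries, the highest and lowest value of each of the 10 genes was compared with the others of its group. Of 40 groups checked 2 held a value far from the rest, which is the share of about 1 in 20 that chance gives. Acvrl1 was at 8.095 TPM in HEL Cre replicate 2, against 4.00 to 4.42 TPM in the other Cre libraries. Tgfbr2 was at 132.7 TPM in CpG fl/+ replicate 1, against 87.1 to 91.3 TPM in the other fl/+ libraries.

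The effect of Ikaros loss differed between CpG and HEL in 4 genes by the test of the difference itself (limma). The CpG effect minus the HEL effect was 0.599 for Tgfb1 and -0.922 for Acvrl1. It was -0.631 for Smad3 and -0.636 for Skil.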

How the results depend on the processing

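No paired analysis was possible because the labels give library numbers but no replicate numbers shared between groups. A sex term had no place where all libraries were male, after CpG and in anergic against naive cells. For the difference between stimuli and both comparisons with HEL-exposed controls it was chosen after seeing the data, and 4 genes were called in each. The library block was run after CpG. After HEL 5 genes of the set were called, and each alternative gave 4 to 6. After CpG 1 was called, 3 with median-ratio scaling, 4 with the library block, and 1 to 2 when each library was left out. In naive cells the count was 0 under every alternative run. In anergic against naive cells 1 was called, 0 with no filter on low values, and 0 to 2 when each library was left out. In HEL-exposed against naive cells 5 were called, 3 with median-ratio scaling, and 4 to 6 when each library was left out. In anergic against HEL-exposed cells 6 were called, 2 with median-ratio scaling, 3 with voom, and 4 to 7 when each library was left out. For the difference between stimuli 4 were called and the alternatives gave 3 to 4.

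Some differences that were not called changed sign. With median-ratio scaling these were Skil after HEL (0.027), Acvrl1 in anergic against naive cells (-0.0151) and Tgfbr1 and Tgfbr2 in HEL-exposed cells (0.124 and 0.0483). With voom they were Acvrl1 in anergic cells (-0.0143), Tgfbr1 in HEL-exposed cells (0.0797) and Smad7 in the difference between stimuli (-0.0088). When each library was left out, the range was -0.088 to 0.0061 for Skil after HEL. In naive cells without Ikaros it was -0.44 to 0.23 for Tgfbr1, -0.0050 to 0.35 for Acvrl1 and -0.25 to 0.30 for Smad3. In anergic cells it was -0.15 to 0.21 for Acvrl1 and -0.036 to 0.31 for Smad7, and for Smad7 in the difference between stimuli -0.068 to 0.20. The cause was not tested. Some genes were called when 1 library was left out but not in the fit with all libraries: after HEL Tgfb1 (Cre replicate 4 or 5), after CpG Tgfbr1 (fl/- replicate 1) and Tgfb1 (fl/+ replicate 1), in anergic against naive cells Ski (anergic replicate 2), in HEL-exposed against naive cells Tgfbr2 and Acvrl1 (HEL replicates 3 and 5), and in anergic against HEL-exposed cells Tgfb1 (anergic replicate 3).

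The Eng difference, a description, was 4.14 after HEL, 5.37 with a pseudocount of 0.1 and 5.61 with voom. After CpG it was 3.29, 3.66 and 3.72, and in HEL-exposed against naive cells -2.12, -3.15 and -3.2. Of the 5 genes most like Eng by Pearson, 2 were also among the 5 by Spearman. Over all genes, the naive loss of Ikaros called 2, 0 with the smaller pseudocount or no filter, 17 with median-ratio scaling, 57 with voom, 240 with a sex term and 0 without any 1 library. In anergic against naive cells 775 were called, and 353 without anergic replicate 1 or 323, 381 and 394 without naive replicates 1, 2 and 3. Of the 775, 471 were higher and 304 lower, and 410 and 442 with median-ratio scaling. In anergic against HEL-exposed cells 3860 were higher and 565 lower, 1073 and 1432 with median-ratio scaling, and 2422 and 378 without anergic replicate 1. In HEL-exposed against naive cells 1036 and 3979 became 2214 and 2004, and after HEL 1321 and 2469 became 1768 and 1708. For the difference between stimuli 1685 and 794 became 1353 and 1063. After CpG 1551 were called, and 909 without fl/- replicate 3. Depth limits Eng in anergic cells (6 to 35 reads) and Acvrl1 after CpG.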
